A study of Mus musculus with 9 samples.

Results

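The genes of prostaglandin and leukotriene signalling were followed in fracture callus, the repair tissue that forms around a broken bone, on day 7 after femoral fracture. The members were 10 named genes, taken by symbol from a table of 22054 genes, all of them protein-coding, and all 10 passed the filter on low counts in every comparison. They were the cyclooxygenases Ptgs1 and Ptgs2, the terminal synthases Ptges and Ptgis, the prostaglandin E2 receptors Ptger2 and Ptger4, the prostaglandin-degrading enzyme Hpgd, and the leukotriene genes Alox5, Alox5ap and Lta4h. The callus came from male C57BL/6J mice, 7 weeks old according to the labels, that all carried a surgical fracture of the femur and received 200 μl by intraperitoneal injection each day for 1 week. The H-151 group was given 750 nmol of H-151, an inhibitor of the innate immune adaptor STING, the SR-717 group 30 mg/kg of SR-717, a STING agonist, and the control group PBS. Each of the 3 groups had 3 libraries, the H-151 and SR-717 doses are stated in different units, and no group without a fracture was sequenced here. The labels number the libraries as separate biosamples without saying whether each was 1 mouse, so p-values measure the spread between these samples, part of which may be technical.

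Prostaglandins and leukotrienes are lipid mediators made from arachidonic acid that phospholipases release from membranes. Cyclooxygenases convert it to the intermediate prostaglandin H2, from which terminal synthases make prostaglandin E2 or prostacyclin, while 5-lipoxygenase, helped by its activating protein, opens the branch to the leukotrienes. Cyclooxygenase-2 is induced by inflammatory signals and is known to be needed for normal fracture repair in rodents, whereas leukotriene B4 is made by myeloid cells and attracts neutrophils.

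The libraries held 16987398 to 23272480 counts. One library, SR-717 replicate 1, stood apart on the first principal component of log2 CPM (counts scaled to library size), which carried 44.07% of the variance, at 105. PBS replicate 1 lay at 40.3 and the other 7 libraries between -30.2 and -4.15, and the fold changes of the SR-717 group are therefore given with and without SR-717 replicate 1. Markers of the tissue were present in all libraries: the summed level of 8 chondrocyte markers ranged from 202 to 5998 TPM (a level scaled for gene length and library size), that of 8 osteoblast markers from 4161 to 13239 and that of 8 osteoclast markers from 5211 to 10930. Markers of skeletal muscle, an adjacent tissue, summed to 5919 to 32293 TPM. The label protocol describes extraction from cell lines, while the labelled tissue is bone.

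The sequence before the start of 3 members is shown because Ptgs2 and Ptges took the largest steps upward in SR-717 replicate 1, by multiples of the other libraries, while Ptgs1 varied least over the 9 libraries. The letters are from RefSeq on the mouse assembly GRCm38.p6, 250 bases up to the annotated start, 5′ to 3′ on the strand of the gene. Ptgs2 lies at chr1:150099781-150100030 on the plus strand, Ptges at chr2:30903298-30903547 on the minus strand and Ptgs1 at chr2:36230176-36230425 on the plus strand. The gene spans given below come from another annotation, and the Ptges start used here lies inside its span there. Capitals mark matches to the letters searched.
Ptgs2: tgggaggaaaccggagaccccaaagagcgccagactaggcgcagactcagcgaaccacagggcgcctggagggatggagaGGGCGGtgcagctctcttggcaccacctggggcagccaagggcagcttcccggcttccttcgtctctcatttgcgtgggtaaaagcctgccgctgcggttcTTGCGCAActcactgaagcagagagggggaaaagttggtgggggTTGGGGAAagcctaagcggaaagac
Ptges: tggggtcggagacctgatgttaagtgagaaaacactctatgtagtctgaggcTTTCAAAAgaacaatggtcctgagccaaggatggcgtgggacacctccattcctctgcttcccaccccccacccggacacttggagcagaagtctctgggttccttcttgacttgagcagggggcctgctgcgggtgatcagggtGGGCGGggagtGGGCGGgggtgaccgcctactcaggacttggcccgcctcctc
Ptgs1: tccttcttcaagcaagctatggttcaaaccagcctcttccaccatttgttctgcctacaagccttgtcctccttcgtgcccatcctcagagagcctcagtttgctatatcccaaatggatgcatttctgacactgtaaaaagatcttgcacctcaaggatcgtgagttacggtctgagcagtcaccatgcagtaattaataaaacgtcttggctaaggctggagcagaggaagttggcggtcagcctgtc

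Windows from 250 bases before to 50 after the start were found for 8 of the 10 members, not for Ptgis or Alox5ap, and were searched on both strands for 7 motifs. The C/EBP letters TTNNGNAA occurred in 4 of the 8 windows and in 40.7% of 32851 promoters in the table, and the GC box GGGCGG in 5 of 8 and in 35.7%. In Ptgs2 the C/EBP matches began 69 and 25 bases before the start and the GC box 170 bases before it. The E-box CACGTG (7.15% of promoters) and the CRE half-site TGACG (20.8%) were matched in Ptgs2 alone among the 8, overlapping each other just after the start at chr1:150100038-150100061 in ccactaCGTCACGTGgagtccgct. In Ptges the C/EBP match began 198 bases before the start and the GC boxes 53 and 42 bases before it. The TATA box TATAAA (13.6% of promoters) was matched in Hpgd, and the AP-1 letters TGANTCA (7.81%) and the NF-kB motif (8.46%) were matched in 0 of the 8 windows. The Ptgs1 window held none of the 7 motifs. Positions count from the annotated RefSeq start. Sequence outside the windows was not searched, so a motif without a match may lie elsewhere. A match describes letters and shows no binding.

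The members covered a wide range of expression, without its lowest and highest ends. On the length-scaled TPM level, averaged over the 9 libraries, Alox5ap was highest at 139 TPM, above 93.2% of the tested genes, followed by Ptgis at 90.3, Lta4h at 74.3 and Hpgd at 64.7 TPM. Ptgs2, Ptges, Ptgs1 and Alox5 lay between 9.79 and 18.1 TPM, and the receptors were lowest, Ptger4 at 3.96 TPM and Ptger2 at 2.05 TPM, above 14.3% of the tested genes. Neighbours in this order overlapped in their range over the libraries, as Ptgis, at 21.3 to 143 TPM, did with Lta4h, at 48.0 to 103 TPM. The highest library was 20.8 times the lowest for Ptgs2 and 13.3 times for Alox5, but 1.83 times for Ptgs1.

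**Figure D1:**
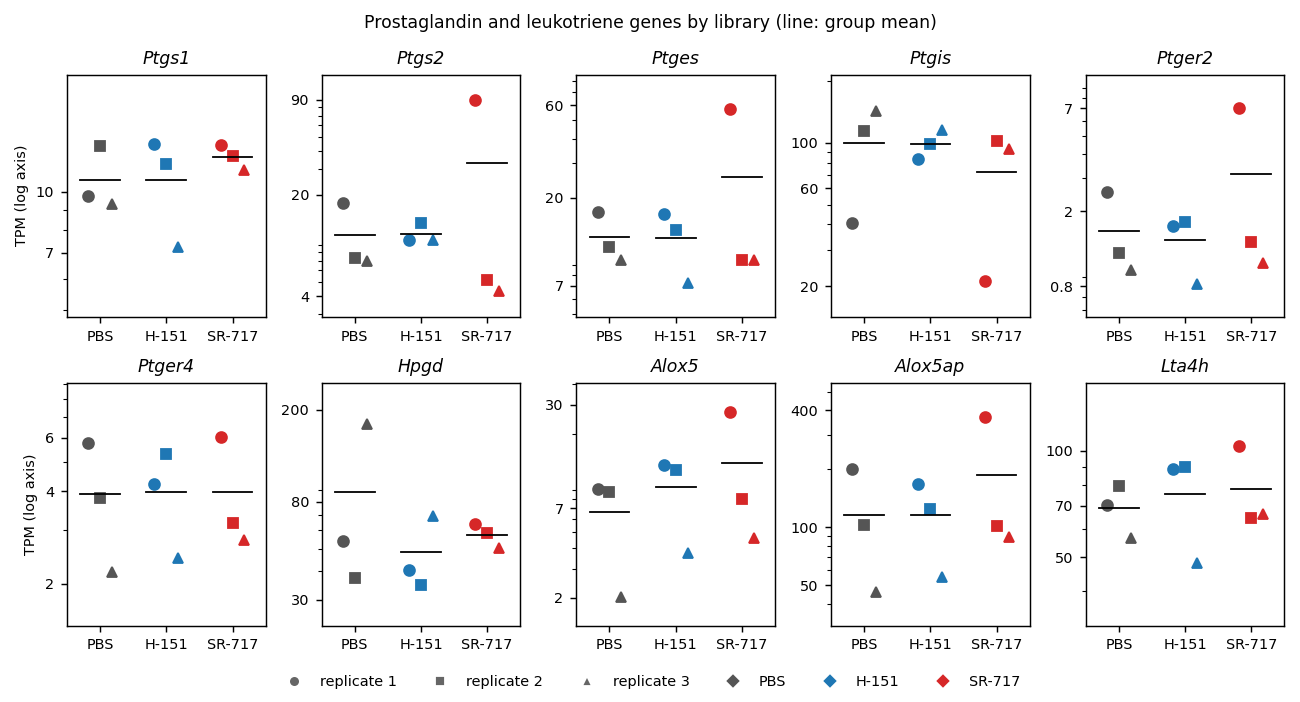
Level of each of the 10 genes in each library, in TPM on a log axis, by group; symbols give the replicate number and the line the mean of 3 libraries. SR-717 replicate 1 is the highest library for 7 genes and the lowest for Ptgis, while Ptgs1 stays within 7.22 to 13.2 TPM.

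The comparison of SR-717 with H-151 asks whether opposite drugs on STING leave different transcript levels, and the comparisons with PBS set each drug against the PBS control. None of the 10 members passed the thresholds in any of the 3 comparisons, and the libraries of the groups overlapped for every member. The test was edgeR's quasi-likelihood test on all genes, with the thresholds the study names, p under 0.05 (taken as unadjusted) and at least 1.5-fold. By these thresholds 0.756% of 14151 genes passed for SR-717 against H-151, 0.519% of 14070 for SR-717 against PBS and 0.426% of 14085 for H-151 against PBS, so that a list of 10 genes with no call is near the background. The groups did not overlap for 5.18%, 3.75% and 3.87% of the genes in the same order. At a Benjamini-Hochberg adjusted p under 0.05 edgeR called 0 genes, or 0%, in each comparison. DESeq2 called 1, 0 and 0 genes at that threshold, none of them a member, with no p given for Ptgs2 in either comparison with SR-717. At an unadjusted p under 0.05 edgeR gave 146, 97 and 91 genes, or 1.03%, 0.689% and 0.646% of those tested. These shares lie below what uniform p-values would give, so the lack of calls does not show that the groups are alike. Every member had an edgeR adjusted p of 0.996 or more.

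The direction of the members leaned the same way in both comparisons with SR-717, which share the SR-717 libraries. The estimate was positive for 9 of 10 members for SR-717 against H-151, with a median log2 fold change of 0.46, beside 53.4% of all genes and a median of 0.02. For SR-717 against PBS it was positive for 8 of 10 members, beside 52.2% of all genes, with a median of 0.63 beside 0.01. For H-151 against PBS it was positive for 6 of 10, beside 44.2% of all genes, with a median of 0.02 beside -0.02. Without SR-717 replicate 1 the estimate was positive for 3 of 10 members in each comparison with SR-717. Without replicate 1 of both groups it was positive for 2 of 10 against H-151 and for 6 of 10 against PBS, and the block by replicate number left it positive for 9 and 8 of 10. The intervals were wide enough that sizeable differences cannot be told from none: for Ptgs2 the 95% interval of the log2 fold change of SR-717 against H-151 ran from -1.13 to 4.66.

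**Figure D2:**
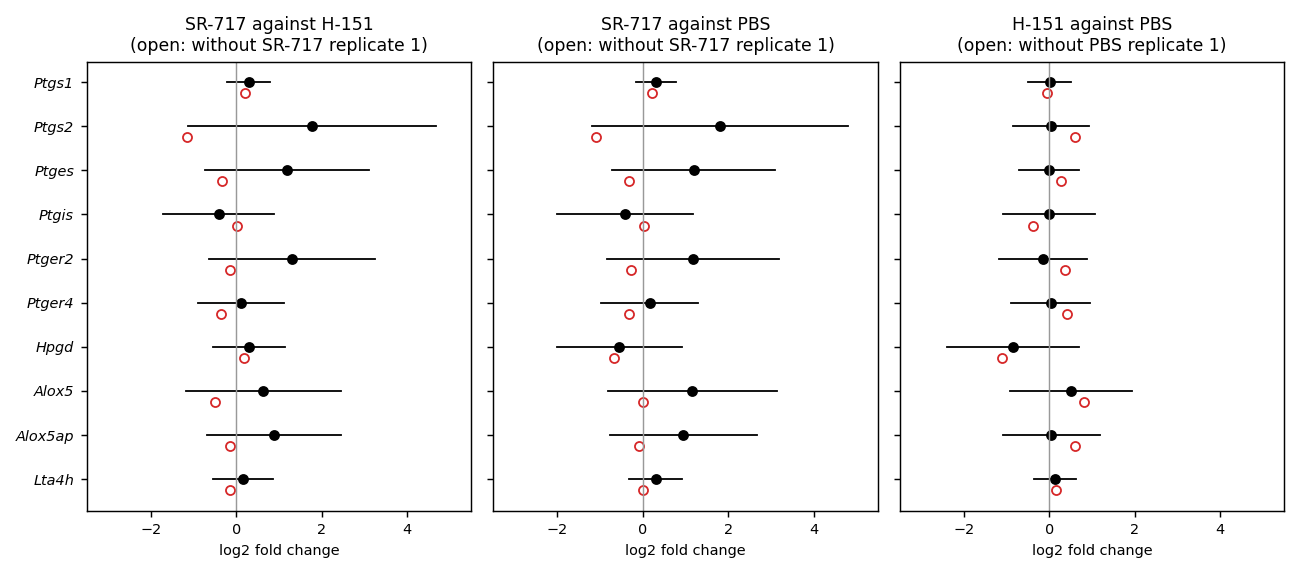
Log2 fold change of each gene in the 3 comparisons (filled points) with its 95% interval (lines) from edgeR, and the same value with 1 library left out (open points). Every interval spans 0, and the open points of Ptgs2 lie on the other side of 0 from the filled ones for SR-717 against H-151, at -1.14, and for SR-717 against PBS, at -1.10.

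Ptgs2, which encodes the inducible cyclooxygenase-2 (GRCm38 chr1:150100031-150108227), had no common direction across the replicates. Its level was 9.68, 12.7 and 9.67 TPM in H-151 replicates 1 to 3, 17.4, 7.36 and 6.97 TPM in the PBS group, and 89.6, 5.14 and 4.31 TPM in the SR-717 group. SR-717 thus held both the highest library and the lowest pair: replicates 2 and 3 lay below all 7 other libraries and replicate 1 above them. The group means were 10.7 ± 1.74 TPM for H-151, 10.6 ± 5.92 TPM for PBS and 33.0 ± 49.0 TPM for SR-717 (SD, n = 3 each).

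The log2 fold change of Ptgs2 for SR-717 against H-151 was 1.76 (SE 1.20, adjusted p = 0.996 in edgeR) and changed sign without SR-717 replicate 1, to -1.14 (SE 0.21, unadjusted p = 0.001228 in edgeR, adjusted p = 1). That fit put Ptgs2 past the thresholds, lower in SR-717, among 1.05% of the genes it tested. Without replicate 1 of both groups, a setting chosen after seeing the data, the value was -1.27 and Ptgs2 was again past the thresholds, among 0.763% of genes. For SR-717 against PBS the value was 1.82 (SE 1.24) with all libraries and -1.10 (SE 0.48) without SR-717 replicate 1, which was not past the thresholds. Without replicate 1 of both groups it was -0.53 (SE 0.23), again short of them. DESeq2 gave no p for Ptgs2 in either comparison with SR-717.

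H-151 and PBS did not separate for Ptgs2 when all libraries were used, with a log2 fold change of 0.04 (SE 0.37, 95% interval -0.84 to 0.92). Without PBS replicate 1, which held 17.4 TPM, Ptgs2 was higher in H-151 by a log2 fold change of 0.60 (SE 0.19, unadjusted p = 0.02242 in edgeR, adjusted p = 1) and past the thresholds, among 0.808% of genes. Without replicate 1 of both groups it was 0.74, among 0.538% of genes. In replicates 2 and 3 the order of Ptgs2 was H-151, PBS, SR-717 from high to low, and in replicate 1 it was the opposite.

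Ptgs1, which encodes the constitutive cyclooxygenase-1 (GRCm38 chr2:36230426-36252272), was the steadiest member. Its level was 13.2, 11.7 and 7.22 TPM in H-151, 9.72, 13.0 and 9.32 TPM in PBS, and 13.1, 12.3 and 11.3 TPM in SR-717. In TPM the SR-717 libraries lay within the range of the other groups. In CPM, the scale of the tests, SR-717 replicates 1 and 2, at 22.6 and 19.9, lay above all H-151 and PBS libraries, which reached 18.8, and replicate 3 lay among them at 17.4. The log2 fold change was 0.29 (SE 0.21) for SR-717 against H-151, 0.31 (SE 0.19) against PBS and 0.01 (SE 0.21) for H-151 against PBS, with 95% intervals that did not exceed 0.79 in size. Without SR-717 replicate 1 the value was 0.19 against H-151 and 0.22 against PBS.

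The balance of the 2 cyclooxygenase transcripts followed Ptgs2. The ratio of Ptgs2 to Ptgs1 in TPM was 0.733, 1.08 and 1.34 in H-151, 1.79, 0.566 and 0.747 in PBS, and 6.82, 0.418 and 0.380 in SR-717. Ptgs2 exceeded Ptgs1 in 4 of the 9 libraries, H-151 replicates 2 and 3 and replicate 1 of PBS and of SR-717.

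**Figure D3:**
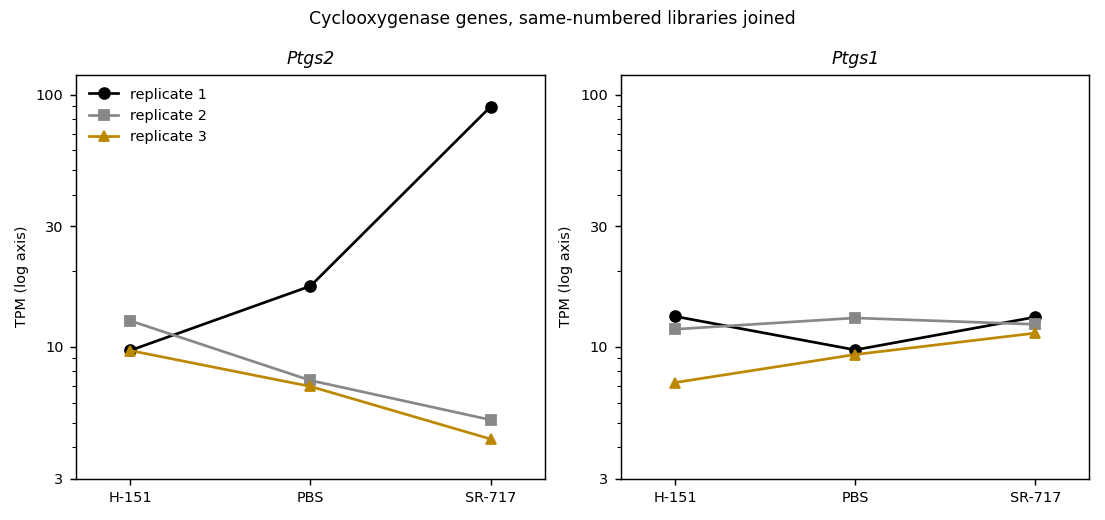
Level of Ptgs2 (left) and Ptgs1 (right) in TPM on a log axis, with libraries of the same replicate number joined by lines. Ptgs2 goes up from H-151 to SR-717 in replicate 1, from 9.68 to 89.6 TPM, and down in replicates 2 and 3, while Ptgs1 stays between 7.22 and 13.2 TPM.

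The terminal synthases moved in opposite directions in SR-717 replicate 1. Ptges (GRCm38 chr2:30889471-30929863), the inducible microsomal prostaglandin E synthase that works after cyclooxygenase-2, was at 16.5, 13.5 and 7.27 TPM in H-151, 16.8, 11.1 and 9.52 TPM in PBS, and 57.5, 9.47 and 9.51 TPM in SR-717. Ptgis (chr2:167191805-167240604), the prostacyclin synthase, was at 83.7, 98.4 and 115 TPM in H-151, 40.6, 115 and 143 TPM in PBS, and 21.3, 102 and 93.5 TPM in SR-717. SR-717 replicate 1 was the highest library for Ptges and the lowest for Ptgis, and PBS replicate 1 came next in both.

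Neither synthase differed between groups beyond the spread of the libraries. The log2 fold change of Ptges for SR-717 was 1.19 (SE 0.79) against H-151 and 1.19 (SE 0.79) against PBS, and without SR-717 replicate 1 it was -0.33 in each. That of Ptgis was -0.41 (SE 0.54) against H-151 and -0.42 (SE 0.66) against PBS, and 0.02 in each without that library. The ratio of Ptgis to Ptges in TPM lay between 2.42 and 15.9 in the other 8 libraries and was 0.370 in SR-717 replicate 1, the one library in which Ptges exceeded Ptgis.

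The receptors for prostaglandin E2, which both signal through cyclic AMP, were the least abundant members. Ptger2 (chr14:44988195-45003820), the EP2 receptor, was at 1.67, 1.75 and 0.827 TPM in H-151, 2.51, 1.21 and 0.978 TPM in PBS, and 7.06, 1.37 and 1.07 TPM in SR-717. Ptger4 (chr15:5206661-5244187), the EP4 receptor, was at 4.24, 5.31 and 2.42 TPM in H-151, 5.74, 3.82 and 2.19 TPM in PBS, and 6.01, 3.16 and 2.78 TPM in SR-717. Replicate 3 was the lowest library of its group for both receptors.

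Ptger4 exceeded Ptger2 by 2.24 to 3.16 times in 8 libraries, and in SR-717 replicate 1 the ratio was 0.852. The log2 fold change of Ptger2 for SR-717 was 1.31 (SE 0.80) against H-151 and 1.17 (SE 0.84) against PBS, and without SR-717 replicate 1 it was -0.15 and -0.29. For Ptger4 the values were 0.11 (SE 0.42) and 0.16 (SE 0.47), with 95% intervals of -0.89 to 1.12 and -0.97 to 1.29, and without SR-717 replicate 1 they were -0.37 and -0.32. Ptger4 overlaps Ttc33 on the opposite strand. The libraries were made strand-specific according to the labels, but whether strand was used in counting is not given in the sources used here.

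Hpgd (chr8:56294585-56321043), the dehydrogenase that inactivates prostaglandin E2, was at 40.4, 34.8 and 69.6 TPM in H-151, 53.9, 37.3 and 173 TPM in PBS, and 63.9, 58.8 and 50.2 TPM in SR-717. PBS replicate 3 held the highest level, and the SR-717 libraries lay closest together, at 57.6 ± 6.91 TPM (SD, n = 3). The log2 fold change was -0.85 (SE 0.65) for H-151 against PBS, -0.55 (SE 0.60) for SR-717 against PBS and 0.29 (SE 0.35) for SR-717 against H-151. Without SR-717 replicate 1 the SR-717 values were -0.67 against PBS and 0.17 against H-151.

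Hpgd was lower in H-151 than in PBS in each same-numbered pair, with differences of -0.52, -0.03 and -1.22 on the log2 CPM scale. In a fit blocked by replicate number its log2 fold change was -0.60 (SE 0.23, unadjusted p = 0.04412 in edgeR, adjusted p = 1), which passed the thresholds, as 1.86% of all genes did in that fit. Without PBS replicate 3 the unblocked value was 0.18 (SE 0.40). Without H-151 replicate 3, Hpgd was past the thresholds as higher in SR-717 than in H-151, at 0.77 (SE 0.20, unadjusted p = 0.01041 in edgeR, adjusted p = 0.999), among 1.06% of genes. Hpgd exceeded Ptgs2 by 2.75 to 24.9 times in 8 libraries, whereas the ratio was 0.713 in SR-717 replicate 1.

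Alox5 and Alox5ap ranked the libraries in nearly the same order. Alox5 (chr6:116410077-116461178), which encodes 5-lipoxygenase, was at 12.8, 12.0 and 3.73 TPM in H-151, 9.21, 8.85 and 2.02 TPM in PBS, and 27.0, 7.93 and 4.64 TPM in SR-717. Alox5ap (chr5:149264767-149288153), the membrane protein that presents arachidonic acid to 5-lipoxygenase, was at 167, 124 and 55.0 TPM in H-151, 198, 102 and 46.4 TPM in PBS, and 369, 102 and 88.6 TPM in SR-717. In every group replicate 1 was highest and replicate 3 lowest for both genes.

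Lta4h (chr10:93453411-93484875), the hydrolase that makes leukotriene B4, had a narrower range. It was at 89.1, 89.9 and 48.0 TPM in H-151, 70.3, 79.6 and 56.8 TPM in PBS, and 103, 64.7 and 66.4 TPM in SR-717. The ratio of Alox5ap to Alox5 in TPM was 10.4 to 22.9 over the 9 libraries, and SR-717 replicate 1, at 13.7, lay inside the range of the others.

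The differences of the leukotriene genes between groups did not exceed the spread of the libraries. The log2 fold change of Alox5ap was 0.89 (SE 0.65) for SR-717 against H-151 and 0.95 (SE 0.71) against PBS, that of Alox5 0.63 (SE 0.75) and 1.15 (SE 0.82), and that of Lta4h 0.15 (SE 0.29) and 0.30 (SE 0.26). Without SR-717 replicate 1 the values were -0.14 and -0.09 for Alox5ap, -0.51 and 0.0097 for Alox5, and -0.15 and -0.0033 for Lta4h. For H-151 against PBS the values were 0.05 (SE 0.48) for Alox5ap, 0.51 (SE 0.60) for Alox5 and 0.14 (SE 0.21) for Lta4h.

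The labels state no pairing by replicate number, and the fits blocked by that number gave smaller errors for Alox5ap and Alox5. This was not particular to them. For SR-717 against PBS most other members also had smaller errors, as Ptgis did (SE 0.66 without the block, 0.21 with it). Ptgs1 did not (SE 0.19 in both). With the block Alox5ap was higher in SR-717 than in PBS by a log2 fold change of 0.77 (SE 0.24, unadjusted p = 0.02497 in edgeR, adjusted p = 0.999), past the thresholds with 3.15% of all genes. The differences within the pairs were 1.27, 0.21 and 0.83 on the log2 CPM scale, and without the first pair the unblocked value was 0.48 (SE 0.35). Alox5 was higher in H-151 than in PBS by 0.60 (SE 0.19, unadjusted p = 0.02246 in edgeR, adjusted p = 1), past the thresholds with 1.86% of all genes, and the pair differences were 0.37, 0.51 and 0.98. Counting members with 1 direction in all 3 same-numbered pairs gave 5 of 10 for SR-717 minus PBS (Ptgs1, Ptger2, Alox5 and Alox5ap higher, Ptgis lower) beside 23.5% of all genes. For H-151 minus PBS it gave 2 of 10 (Hpgd lower, Alox5 higher) beside 21.7%. For SR-717 minus H-151 it gave 1 of 10 (Ptgs1 higher) beside 21.3%. Some of the common directions for SR-717 minus PBS rested on differences near 0. These were -0.0074 for Ptgis and 0.014 for Alox5 in replicate 2, and 0.055 for Ptger2 in replicate 3.

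The levels of Alox5 and Alox5ap moved with several lists of immune markers, of which the neutrophil list had the highest sum. The 10 neutrophil markers, among them S100a8, S100a9 and Ly6g, were all detected in every library and summed to 12137, 10808 and 3001 TPM in H-151, 9735, 7210.15 and 1504 TPM in PBS, and 34999.7, 9250.25 and 6593 TPM in SR-717. The library with the lowest sum, PBS replicate 3, was also the lowest for Alox5 and Alox5ap, and the library with the highest sum was the highest for both. The monocyte and macrophage list and the early inflammatory cytokines were likewise lowest in PBS replicate 3 and highest in SR-717 replicate 1. The mast cell list had the same lowest and highest library, but Hdc gave 303 of its 325 TPM in SR-717 replicate 1. The other 7 mast cell markers summed to 21.6 TPM there, within the 17.5 to 44.3 TPM of the other libraries. The part of any of these in the members' levels was not tested. In bulk callus fewer cells of a type and less RNA per cell cannot be told apart.

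**Figure D4:**
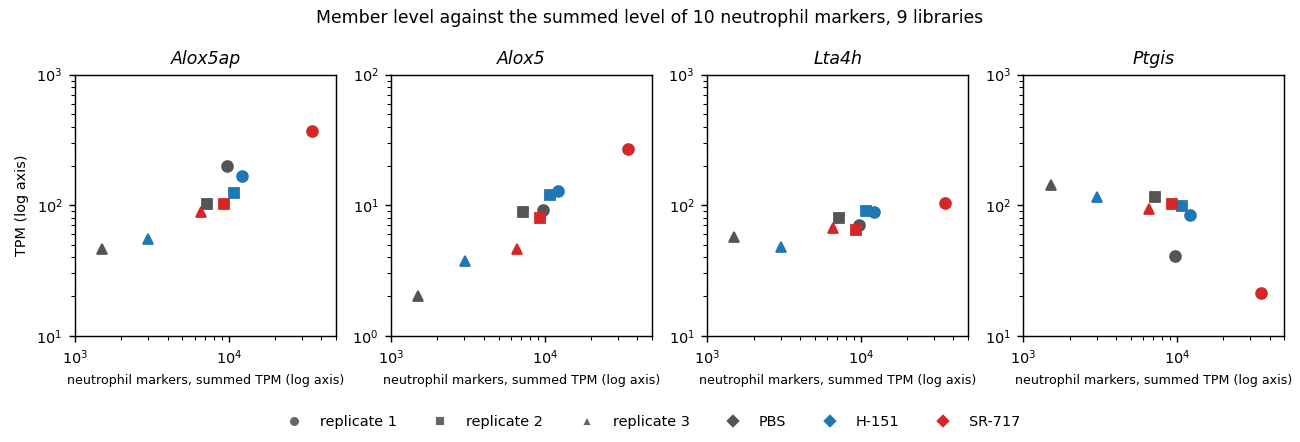
Level of Alox5ap, Alox5, Lta4h and Ptgis in TPM against the summed TPM of 10 neutrophil markers, both on log axes, with 1 point per library; colour gives the group and symbol the replicate number. Alox5ap and Alox5 are lowest in PBS replicate 3, at 46.4 and 2.02 TPM, and highest in SR-717 replicate 1, at 369 and 27.0 TPM, where Ptgis is lowest at 21.3 TPM.

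SR-717 replicate 1 stood apart for most members. In TPM it was the highest of the 9 libraries for 7 of 10 members, beside 19.4% of 14294 genes, and the lowest for 1, beside 34.6% of genes. It exceeded the median of the other 8 libraries by 10.5 times for Ptgs2, 5.57 times for Ptges, 5.47 times for Ptger2, 3.61 times for Alox5ap and 3.22 times for Alox5. For Ptger4, Lta4h, Hpgd and Ptgs1 the multiple was between 1.14 and 1.72, and for Ptgis it was 0.213. A level of at least 2 times that median was found for 5 of 10 members and for 11.5% of all genes. In CPM, SR-717 replicate 1 was the highest library for Ptgs1 too, at 22.6.

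Other marker lists differed in the same library. Monocyte and macrophage markers summed to 3679 TPM in SR-717 replicate 1 and to 1287 to 2601 TPM in the other 8 libraries, with all 10 highest there. The 8 mast cell markers summed to 325 TPM there and to 20.4 to 81.0 TPM elsewhere, but Hdc, a histamine-forming enzyme not restricted to mast cells, gave 303 TPM of that sum. The other 7, among them the mast cell proteases, summed to 21.6 TPM within a range of 17.5 to 44.3 TPM in the other libraries. The 8 early inflammatory cytokine genes summed to 2789.7 TPM against 20.8 to 624 TPM, with PBS replicate 1 the second highest. All 8 chondrocyte markers were lowest there, with a sum of 202 TPM against 796 to 5998 TPM. Osteoclast markers (5211 TPM, 7 of 8 lowest there) and osteoblast markers (4161 TPM, 4 of 8) also had their lowest sum in that library. The list of fibroblasts and periosteal progenitors was lowest in sum, at 18044 TPM against 21734 to 29634 TPM, through Col1a1 (5941 TPM) and Col1a2 (4890 TPM), whereas Pdgfra (48.0 TPM) and Dcn (685 TPM) of the same list were highest there. Platelet markers, relevant because platelets express Ptgs1, summed to 162 TPM within a range of 60.2 to 316 TPM, and endothelial markers to 563 TPM against 597 to 767 TPM. The part of each in the levels of Ptgs2, Ptges, Ptger2 and Ptgis was not tested.

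The rest of the pathway was described from 42 further genes in 7 lists, and 0 of those tested passed the thresholds in any comparison. For SR-717 against H-151, 30 were tested and 17 had a positive estimate, with a median log2 fold change of 0.12. For SR-717 against PBS 20 of 29 were positive with a median of 0.13, and for H-151 against PBS 17 of 31 with a median of 0.02. Without SR-717 replicate 1, 16 of 30 and 21 of 29 were positive in the comparisons of SR-717 with H-151 and with PBS, with medians of 0.02 and 0.07 and 0 past the thresholds. The most abundant gene of each list, by mean TPM, was Pla2g12a among the phospholipases that release arachidonic acid (28.3 TPM), Akr1b3 among the prostanoid synthases (194), Ptgfr among the prostanoid receptors (7.08), Cbr1 in transport and breakdown (27.3), Dpep2 among the enzymes of the cysteinyl leukotrienes (19.2, summed over 2 entries of that symbol), Ltb4r1 among the leukotriene receptors (19.0) and Alox12 among the other lipoxygenases (6.02). No listed gene was at 0 in all libraries.

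Ltb4r1, the high-affinity receptor for leukotriene B4, ordered the libraries much as Alox5 did. It was at 21.9, 19.6 and 5.24 TPM in H-151, 20.2, 14.2 and 3.02 TPM in PBS, and 61.9, 14.6 and 10.0 TPM in SR-717, with a log2 fold change of 1.06 (SE 0.82) for SR-717 against H-151 and of -0.25 (SE 0.52) without SR-717 replicate 1. The next 3 genes were named after their values were seen. Cysltr1, a receptor for cysteinyl leukotrienes, was at 7.64 TPM in SR-717 replicate 1 and at 0.311 to 1.18 TPM in the other libraries, with a log2 fold change of 2.49 (SE 1.32) for SR-717 against H-151 and of -0.66 (SE 0.42) without that library. Ptgds, a prostaglandin D2 synthase, was at 2.53, 2.52 and 3.15 TPM in H-151, above all PBS libraries (0.131, 1.82 and 0.129) and all SR-717 libraries (0.222, 1.76 and 0.704). Its log2 fold change was 1.92 (SE 0.85, adjusted p = 1 in edgeR) for H-151 against PBS and -1.57 (SE 0.66, adjusted p = 0.996 in edgeR) for SR-717 against H-151, short of the thresholds in both, and -1.11 for the latter without SR-717 replicate 1. Ggt5, which acts on leukotriene C4, had a log2 fold change of 0.40 (SE 0.15, unadjusted p = 0.03617 in edgeR) for SR-717 against H-151, below 1.5-fold, and 0.33 without SR-717 replicate 1. Its groups did not overlap there, as for 5.18% of all genes (3.87% for H-151 against PBS). It was the 1 listed gene of 30 tested at an unadjusted p under 0.05 there, beside 1.03% of all genes. The lowest adjusted p of any gene in that comparison was 0.996 in edgeR.

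The genes whose log2 CPM over the 9 libraries was most like a member's were found among 13519 genes, as a description of libraries that share the outlying SR-717 replicate 1. Chil1, H2-Q10 and Apobec3 were most like Alox5ap, with Pearson's r of 0.996 to 0.997, and Parvg, Treml2 and Akna most like Alox5, at 0.987 to 0.988. Cap1, Plscr1 and Stard4 were most like Ptges (0.990 to 0.997), Slc35a5, Pgm2 and Bnip3 most like Ptgs2 (0.971 to 0.977), and Lyz2, Ppp1r18 and Pfkfb3 most like Ptger2 (0.984 each). Pik3ip1, Flvcr2 and Col26a1 were most like Ptgis (0.987 to 0.989), Mideas, Nrg1 and Tgfbr3 most like Ptger4 (0.964 to 0.979), and Zfp933, Tmem65 and Agpat5 most like Hpgd (0.976 to 0.980). Dbnl, Cdc42se1 and Rnf145 were most like Lta4h (0.969 to 0.975) and Sf3b2, Polr2a and Nemp1 most like Ptgs1 (0.949 to 0.979). Without SR-717 replicate 1, r was 0.993 for Chil1 with Alox5ap and 0.899 for Slc35a5 with Ptgs2, and none of the 3 genes named for Ptgs2 was among its 3 most alike.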

How the data were processed

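Poly(A) RNA of day-7 callus was sequenced as strand-specific paired reads, per the labels, in 9 libraries. For each gene the deposited table gives expected counts as the authors estimated them, not normalized, and the TPM values they scaled for gene length. Per the labels the genome was mm10. The aligner, counting program and annotation are not given in the sources used here, and 8.909% of the deposited expected counts were not whole. Rounded counts of the 6 libraries in a comparison entered edgeR 4.0.16 (R 4.3.3), filtered by filterByExpr (a count of 10, a total of 15), scaled by TMM and tested by quasi-likelihood (glmQLFit, glmQLFTest), with Benjamini-Hochberg adjustment over all genes. TPM served for levels, and CPM after TMM for log2 differences. DESeq2 1.42.0, other scaling, no filter, a robust prior, a fit of all 9 libraries, a replicate block and leaving out libraries were the alternatives. Same-numbered libraries deviated together to differing degrees for SR-717 and PBS (r = 0.65, 0.342 and 0.133 of deviations from the group means) and for H-151 and PBS (0.296, 0.482 and 0.489). Any pairing is inferred from these values of the same data. The labels give only a number, and the paper states that mice were divided into groups at random. The fits were tested on simulated counts that held no outlying library, so that test does not cover a library like SR-717 replicate 1. Replicates differed by more than sampling noise, so none was a copy. The members and lists were chosen with earlier results of these data known. All members, the highest gene of each list, genes past the thresholds and the 3 genes most like each member were named by rule.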

Additional observations from a re-analysis of the deposited data

How the results depend on the processing

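There were 3 libraries a group, each of 16987398 counts or more, and the spread between libraries was wide for most members. The part of depth was not tested, and Ptger2 had only 33 counts in H-151 replicate 3. The Wald test of DESeq2, its size factors in edgeR, a robust prior, dropping the low-count filter and a fit of all 9 libraries left 0 members past the thresholds in each comparison and reversed no member. The Wald test gave no p for Ptgs2 in either comparison with SR-717, so it could not call that member there. The cause of the changes below was not tested. The number of all genes past the thresholds for SR-717 against H-151, 107, was 209 by DESeq2, with 1 at an adjusted p under 0.05, 223 without the filter and 171 with all 9 libraries. For SR-717 against PBS, 73, it was 138, 194 and 176 under the same settings, and for H-151 against PBS, 60, it was 127 without the filter. With the replicate block it was 443 for SR-717 against PBS, with 1 member, and 262 for H-151 against PBS, with 2 members, where Ptgs1 moved to -0.0035 and Ptgis to 0.14. For SR-717 against H-151, whose same-numbered libraries had r of 0.313, 0.0709 and 0.0775, the block gave 143 genes and 0 members. It changed no other call.

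Leaving out libraries gave 64 to 661 genes and 0 to 1 member for SR-717 against H-151, 95 to 319 genes for SR-717 against PBS, and 43 to 698 genes and 0 to 1 member for H-151 against PBS. For SR-717 against H-151 the log2 fold change then ranged from -1.27 to 2.29 for Ptgs2, -0.33 to 1.60 for Ptges, -0.76 to 0.017 for Ptgis, -0.15 to 1.73 for Ptger2, -0.38 to 0.38 for Ptger4, -0.012 to 0.77 for Hpgd, -0.51 to 1.05 for Alox5, -0.14 to 1.25 for Alox5ap and -0.15 to 0.30 for Lta4h. For SR-717 against PBS it ranged from -1.10 to 2.37 for Ptgs2, -0.33 to 1.60 for Ptges, -0.79 to 0.019 for Ptgis, -0.29 to 1.68 for Ptger2, -0.32 to 0.54 for Ptger4, -0.93 to 0.48 for Hpgd, 0.0097 to 1.57 for Alox5, -0.088 to 1.49 for Alox5ap and -0.0033 to 0.44 for Lta4h. For H-151 against PBS it ranged from -0.14 to 0.17 for Ptgs1, -0.18 to 0.74 for Ptgs2, -0.19 to 0.26 for Ptges, -0.38 to 0.41 for Ptgis, -0.36 to 0.37 for Ptger2, -0.22 to 0.45 for Ptger4, -1.34 to 0.18 for Hpgd, -0.29 to 0.60 for Alox5ap and -0.0040 to 0.32 for Lta4h.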
